A study of Sus scrofa with 6 samples.

Results

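The genes described here were 9 chemokine and cytokine genes of the intestinal epithelium, out of 31908 gene IDs in the deposited table: CCL5, CCL2, CCL20, CXCL2, CXCL8, IL6, IL1A, IL18 and TNF. They were matched by the gene name in the table, or by its description where the name was blank, as for CCL20. These members were chosen by their names with earlier results of the same contrast known, so their own differences between the groups are given as a description. The place each took under the rule applied to all genes is stated, but it is no test of them. RNA-seq was run on 6 libraries of IPEC-J2 cells, an established epithelial cell line from the pig jejunum. The 3 CON libraries came from cells given PBS, and the 3 CDCA libraries from cells treated with 50 μM chenodeoxycholic acid (CDCA), a primary bile acid, and both groups were collected after 24 h. The comparison addressed how the transcriptome of these cells differed after CDCA treatment. The study used a single line in culture, without the immune cells that respond to these ligands in tissue. The study calls the samples of a group biological replicates, and the sources used here do not say how their cultures were kept apart.

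Chemokines are small secreted proteins that direct the movement of leukocytes along a concentration gradient, and they are grouped as CC or CXC by the spacing of their first cysteines. CC chemokines act mainly on T cells, monocytes and dendritic cells, and CXC chemokines such as CXCL8 act mainly on neutrophils. Intestinal epithelial cells release chemokines and cytokines such as IL-6 and IL-18 when they sense microbes, damage or stress, and many of these genes are classic targets of the transcription factor NF-kB.

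The values are TPM, transcript abundances divided by transcript length and scaled to a fixed total per library, summed over the listed transcripts of each gene ID. The table holds no read counts per gene, and TPM do not keep the number of reads behind each value, so counting error was not put on any value. The listed TPM summed to between 351770 and 366073 per library, where a full library would sum to 1000000. Log2 fold changes (CDCA minus CON) were estimated by limma on log2(TPM + 1), over the 8708 genes that averaged 1 TPM or more, a scale that understates the change of weakly expressed genes. A call required a limma FDR below 0.05 together with a log2 fold change beyond 1 or -1. By this rule, 306 of all tested genes (3.51%) were higher in CDCA and 340 (3.90%) were lower. With totals that left out the mtDNA-encoded genes, 221 were higher and 485 lower. Across those genes, Pearson's r between libraries was 0.972 to 0.980 within the groups and 0.927 to 0.934 between them.

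Among the 9 genes, 6 passed the filter and 3 (CCL2, IL1A and TNF) did not. As a description, CCL5 and CXCL8 were among the genes called higher in CDCA, none of the 9 was among those called lower, and the other 4 had log2 fold changes between -1 and 1. All 3 CDCA libraries lay above all 3 CON libraries for 5 of the 6 tested genes and below them for the other, IL18. The corresponding shares of all tested genes were 33.7% and 27.8%. The median log2 fold change of the 6 was 0.83, against 0.05 over all tested genes. Since the genes were chosen with this contrast known, nothing is read from these counts. In bulk RNA, a change in the number of cells that express a gene and a change in its RNA per cell cannot be told apart. Nearest to the filter, CCL20 had a mean of 2.61 TPM over the 6 libraries and CCL2 a mean of 0.157 TPM.

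**Figure D1:**
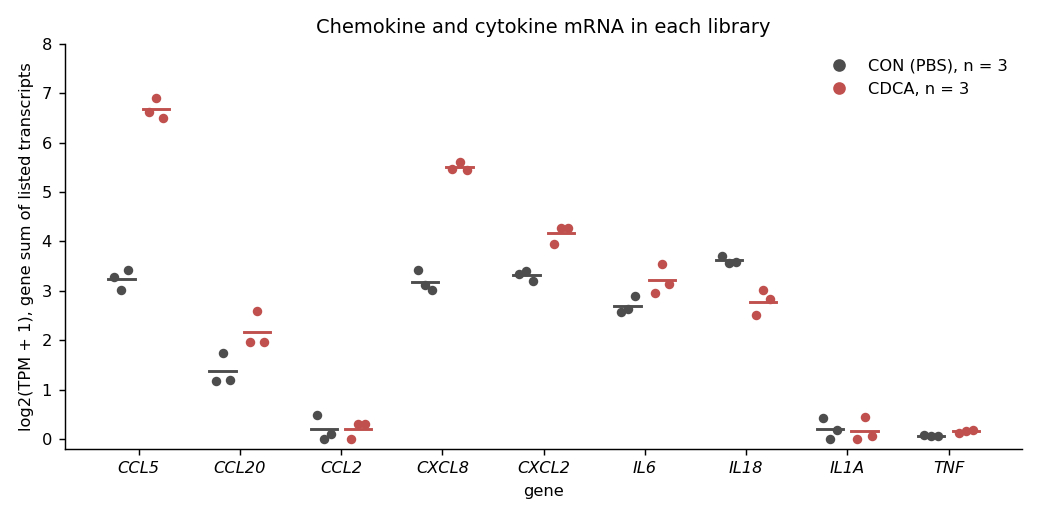
Abundance of the 9 genes in each library, as log2(TPM + 1) on the vertical axis; each point is a library (grey, CON; red, CDCA) and each horizontal line the mean of 3. CCL5 and CXCL8 show the widest separation, IL18 is the only tested gene with the CDCA points below the CON points, and CCL2, IL1A and TNF lie near 0 in both groups.

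CCL5 (ENSSSCG00000017705), also known as RANTES, attracts T cells and monocytes. It was listed at 8.69, 7.08 and 9.78 TPM in CON against 96.93, 119.41 and 89.63 TPM in CDCA. Every CDCA library was far above every CON library, and the lowest CDCA value was 9.16 times the highest CON value. The means were 8.52 ± 1.36 TPM in CON and 102 ± 15.5 TPM in CDCA (SD, n = 3 each), a ratio of 12.0. The log2 fold change of 3.44 ± 0.14 (SE) was the sixth highest of all tested genes, and leaving out any single library gave values from 3.32 to 3.53. By mean TPM, CCL5 stood at rank 3909 of all listed gene IDs in CON and at rank 434 in CDCA. Its value came from 1 listed transcript.

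CCL20 (ENSSSCG00000016254), the ligand of CCR6, attracts dendritic cells and lymphocytes to the epithelium over lymphoid follicles. It was weakly expressed, at 1.24, 2.36 and 1.29 TPM in CON against 2.88, 4.99 and 2.89 TPM in CDCA. The groups did not overlap, but the spread was wide, and in each group 1 library (replicate 2) stood above the other 2. The ratio of the means was 2.20 and the log2 fold change 0.80 ± 0.23 (SE), below the limit for a call. With a pseudocount of 0.1 TPM the log2 fold change was 1.10, and with the listed TPM rescaled to 1000000 it was 1.01, both past that limit. CCL2 (ENSSSCG00000017723), which attracts monocytes, was listed at 0.40, 0 and 0.07 TPM in CON against 0, 0.24 and 0.23 TPM in CDCA. These values overlapped, and both means were 0.157 TPM. A difference in CCL2 was not detectable at this abundance.

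CXCL8 (ENSSSCG00000008953) encodes interleukin-8, a strong attractant of neutrophils. It was listed at 9.74, 7.65 and 7.07 TPM in CON against 43.53, 47.60 and 42.67 TPM in CDCA. The CDCA libraries were close to each other and well above all CON libraries. The means were 8.15 ± 1.40 TPM and 44.6 ± 2.63 TPM (SD, n = 3 each), a ratio of 5.47. The log2 fold change was 2.33 ± 0.11 (SE), and leaving out a library gave values from 2.24 to 2.45. Nearly all of the TPM came from 1 of the 2 listed transcripts, and the second reached at most 0.66 TPM.

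CXCL2 (ENSSSCG00000008959) also attracts neutrophils, through the receptor CXCR2. It was listed at 9.14, 9.50 and 8.21 TPM in CON against 14.51, 18.22 and 18.39 TPM in CDCA, so the groups did not overlap. The means were 8.95 ± 0.67 TPM and 17.0 ± 2.19 TPM (SD, n = 3 each), a ratio of 1.90. The log2 fold change of 0.85 ± 0.10 (SE) was under the limit for a call, and it was 0.70 with totals that left out the mtDNA-encoded genes. In the RefSeq gene order of the pig, CXCL8, AMCF-II, PPBP and CXCL2 lie in a single cluster with 2 further unnamed genes. Related copies of this kind can share reads, so how the authors' quantification divided reads among them is uncertain.

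**Figure D2:**
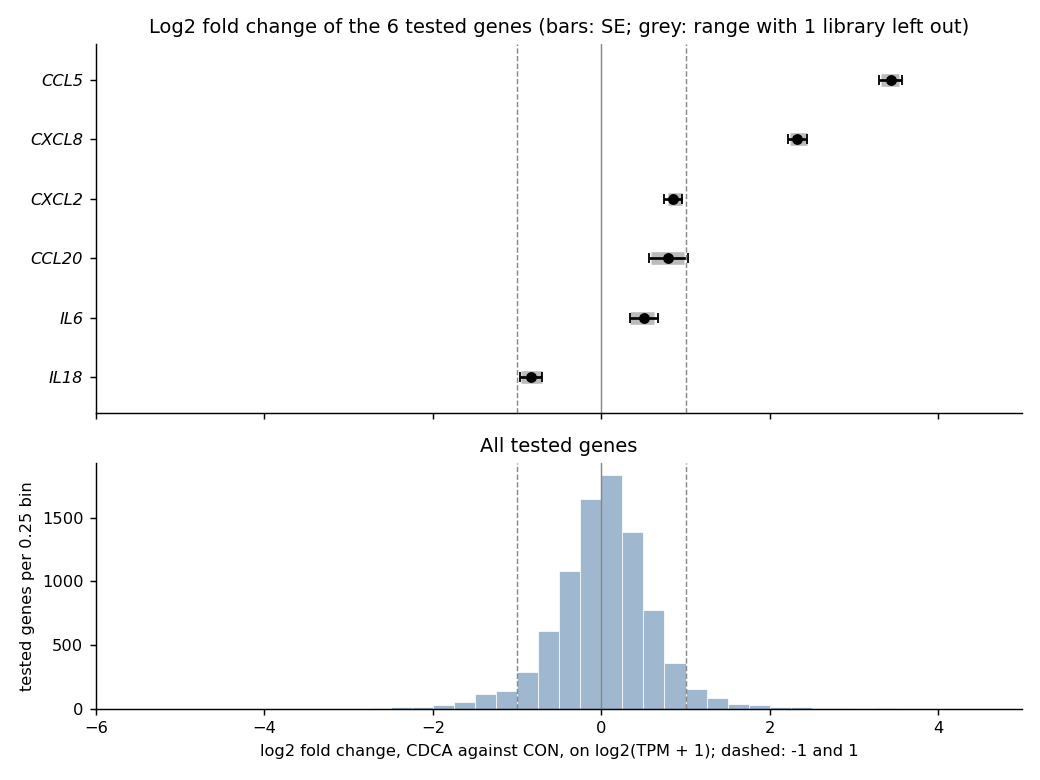
Log2 fold changes of the 6 tested genes (upper panel; points with SE, grey bands for the range with 1 library left out) above the distribution of the log2 fold change over all 8708 tested genes (lower panel), on a shared horizontal axis. CCL5 at 3.44 and CXCL8 at 2.33 lie in the upper tail, while CXCL2, CCL20, IL6 and IL18 lie between the dashed lines at -1 and 1.

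IL6 (ENSSSCG00000020970) encodes interleukin-6, a cytokine of the acute phase response that also supports epithelial repair. It was listed at 4.94, 5.21 and 6.47 TPM in CON against 6.80, 10.61 and 7.75 TPM in CDCA. The groups did not overlap, but the lowest CDCA value was only 1.05 times the highest CON value. The means were 5.54 ± 0.82 TPM and 8.39 ± 1.98 TPM (SD, n = 3 each). The log2 fold change was 0.51 ± 0.16 (SE), with a range from 0.34 without CDCA replicate 2 to 0.63 without CDCA replicate 1.

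IL18 (ENSSSCG00000015037) encodes interleukin-18, which epithelial cells make as an inactive precursor and which induces interferon gamma in lymphocytes. It was listed at 12.04, 10.85 and 10.99 TPM in CON against 4.70, 7.07 and 6.09 TPM in CDCA. All CDCA libraries were below all CON libraries, in the opposite direction to the other tested genes of the set. The means were 11.3 ± 0.65 TPM and 5.95 ± 1.19 TPM (SD, n = 3 each), a ratio of 0.527. The log2 fold change of -0.84 ± 0.13 (SE) did not reach the lower limit for a call. It was -1.001, just past that limit, with totals that left out the mtDNA-encoded genes. Leaving out single libraries gave values from -0.95 to -0.70.

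IL1A (ENSSSCG00000008090), which encodes the alarmin interleukin-1 alpha, was listed at 0.34, 0 and 0.14 TPM in CON against 0, 0.36 and 0.04 TPM in CDCA. The groups overlapped. TNF (ENSSSCG00000001404), the gene of tumor necrosis factor, was listed at 0.06, 0.04 and 0.04 TPM in CON against 0.09, 0.11 and 0.13 TPM in CDCA. The TNF groups did not overlap, but every value was so low that no fold change is given. Neither gene passed the filter of the main fit. TNF was matched by its deposited name, and the Ensembl names used for other symbols give TNF another ID, which was not listed.

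The order of the genes differed between the groups. In CON, IL18 was the most abundant, and CXCL2, CCL5 and CXCL8 followed with overlapping ranges, then IL6 and CCL20. In CDCA the order was CCL5, CXCL8, CXCL2, IL6, IL18 and CCL20, where the ranges of IL6 and IL18 overlapped and so did those of IL18 and CCL20. The ratio of CCL5 to CXCL8 within a library was 0.892, 0.925 and 1.38 in CON and 2.23, 2.51 and 2.10 in CDCA. CCL5 was thus at a similar abundance to CXCL8 in CON and more than 2 times as abundant in every CDCA library.

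Summed over the 9 genes, the TPM were 46.6, 42.7 and 44.1 in CON and 169, 209 and 168 in CDCA. CCL5 and CXCL8 together held 34.5% to 39.6% of that sum in CON and 78.8% to 82.9% in CDCA. IL18 held 24.9% to 25.8% in CON and 2.77% to 3.63% in CDCA. As a share of all listed TPM, the 9 genes made up 0.0118% to 0.0127% in CON and 0.0471% to 0.0574% in CDCA.

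**Figure D3:**
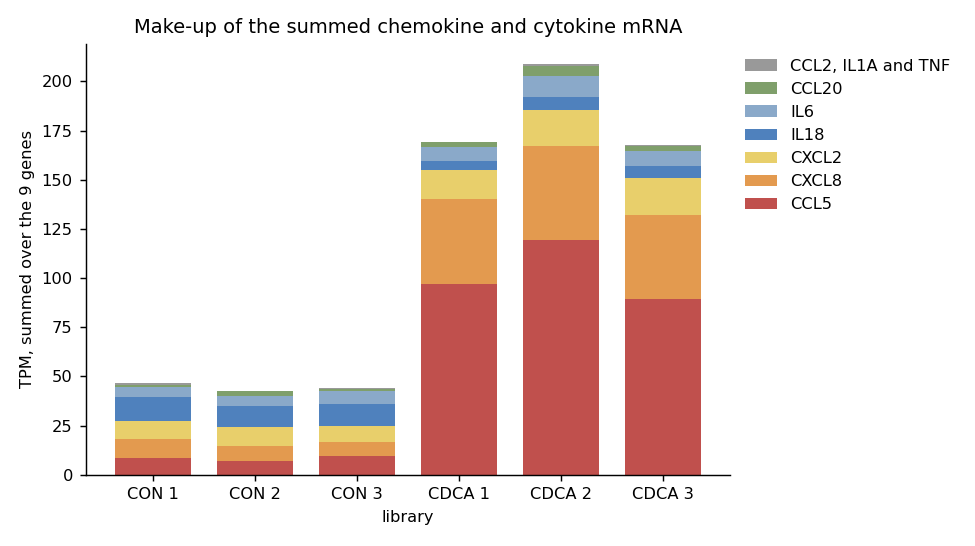
Summed TPM of the 9 genes in each library, on a linear axis from 0, divided by gene. The CDCA bars reach 168 to 209 TPM against 42.7 to 46.6 TPM for CON, and CCL5 and CXCL8 fill most of the CDCA bars.

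For CXCL2, IL6 and IL18, several listed transcripts carried the gene's value. The most abundant CXCL2 transcript was listed at 3.44, 3.83 and 3.43 TPM in CON against 6.39, 7.66 and 6.18 TPM in CDCA, and those ranked 2 and 4 by mean TPM were likewise higher in every CDCA library. The transcript ranked 3 was listed at 1.68, 2.11 and 0.48 TPM in CON against 2.04, 3.16 and 5.40 TPM in CDCA, so the groups overlapped. The ratios of the group means of the first 4 transcripts lay between 1.45 and 2.48, on the same side of 1 as the gene's ratio.

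The first IL6 transcript was listed at 4.50, 3.94 and 2.49 TPM in CON against 4.54, 5.91 and 5.65 TPM in CDCA, which separates the groups by 0.04 TPM. The second was listed at 0.44, 1.27 and 3.98 TPM in CON against 2.26, 4.70 and 2.10 TPM in CDCA, with overlap. In CON the SD of the IL6 gene sum (0.82 TPM) was below that of either transcript (1.04 and 1.85 TPM), and in CDCA (1.98 TPM) it was above both (0.73 and 1.46 TPM). The main IL18 transcript was listed at 10.16, 9.18 and 9.56 TPM in CON against 3.94, 5.27 and 5.62 TPM in CDCA, a ratio of 0.513, while the second, at 1.83, 1.57 and 1.40 TPM against 0.70, 1.74 and 0.42 TPM, overlapped.

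**Figure D4:**
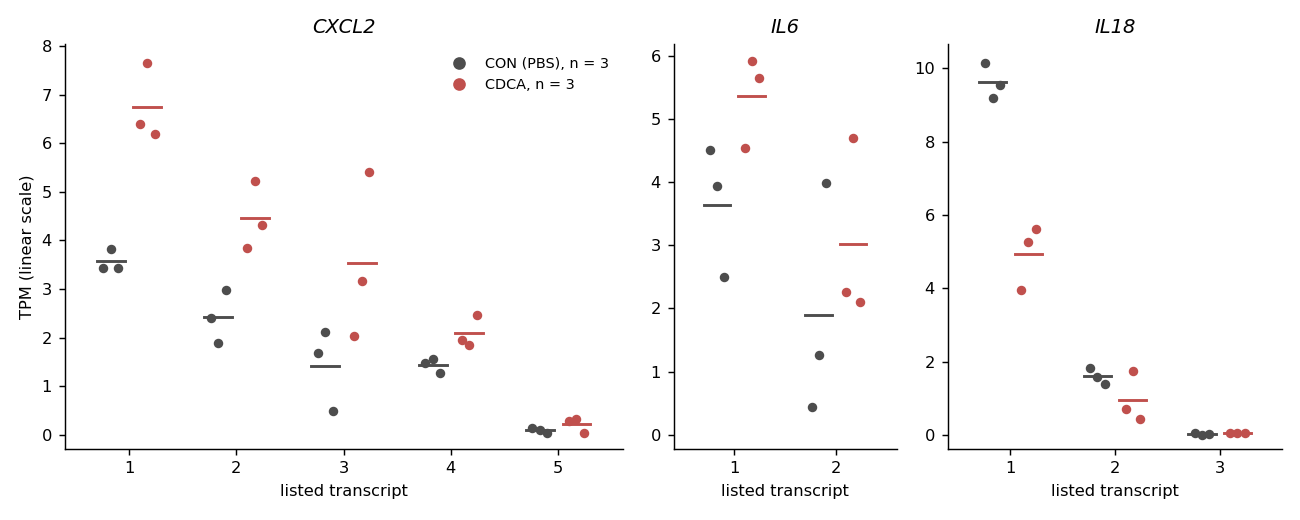
TPM of the listed transcripts of CXCL2, IL6 and IL18 in each library, on linear axes that differ between panels; transcripts are ordered by mean TPM, points are libraries and lines are means of 3 (CXCL2's last and IL18's last transcript, at or near 0, are not drawn). The first transcripts of CXCL2 and IL18 separate the groups clearly, and the second transcript of IL6 does not.

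Over the 6 libraries, the tested genes with a symbol whose log2(TPM + 1) was most like that of CCL5 by Pearson's r were COX19 (0.999), CCDC9 (0.999) and RPRD2 (0.999). For IL18 they were TJP3 (0.996), COG7 (0.996) and KIFC1 (0.995). These are descriptions over 6 libraries in 2 separate groups, and such values were common: 1200 genes (13.8%) had an r over 0.95 with CCL5 and 312 (3.58%) with IL18.

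The other ligands of both classes were examined as lists. These and the later gene lists were also chosen with earlier results of these data known. Their calls and limma FDRs are therefore descriptions and no independent test. Over all tested genes, 3.51% were called higher and 3.90% lower. Of 32 other chemokine ligands, 28 were listed and 2 were tested, and 12 of those not tested were listed at 0 in all libraries. CCL4, which attracts many of the same cells as CCL5, was called higher: 1.80, 1.49 and 1.41 TPM in CON against 5.22, 6.55 and 4.71 TPM in CDCA (log2 fold change 1.33 ± 0.13 SE, limma FDR 0.000238). CXCL16, a membrane-bound chemokine, had a log2 fold change of 0.52 and was not called. The neighbours of CCL5 in RefSeq gene order, CCL14 and CCL16, were listed at 0 in every library, as were CCL8 and CCL11 beside CCL2. These neighbours, and any further gene that was not called, were picked after their values were seen.

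Of 60 other cytokine ligands, 53 were listed and 12 tested, with 3 called higher, 0 called lower and a median log2 fold change of 0.29. LIF, a cytokine of the IL-6 family, was listed at 4.83, 4.38 and 4.41 TPM in CON against 14.23, 16.45 and 13.81 TPM in CDCA (log2 fold change 1.51 ± 0.08 SE, limma FDR 2.56e-05). IL11, of the same family, was listed at 1.69, 1.71 and 2.25 TPM in CON against 6.06, 7.40 and 7.92 TPM in CDCA (1.49 ± 0.13 SE, limma FDR 0.000128). Neither overlapped between groups, and both differed more on the log2 scale than IL6 itself.

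IL23A, a subunit of interleukin-23, was called higher too, from 0.46, 0.21 and 0.09 TPM to 2.81, 2.57 and 2.04 TPM, but it passed the filter only through the CDCA libraries. CSF2, which supports granulocytes and macrophages, had a log2 fold change of 0.85 and was not called. MIF, an abundant cytokine listed at 91.76, 93.99 and 97.26 TPM in CON against 62.06, 67.47 and 66.08 TPM in CDCA, had a log2 fold change of -0.53 and was not called. IL1B, beside IL1A in gene order, did not exceed 0.03 TPM in any library.

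**Figure D5:**
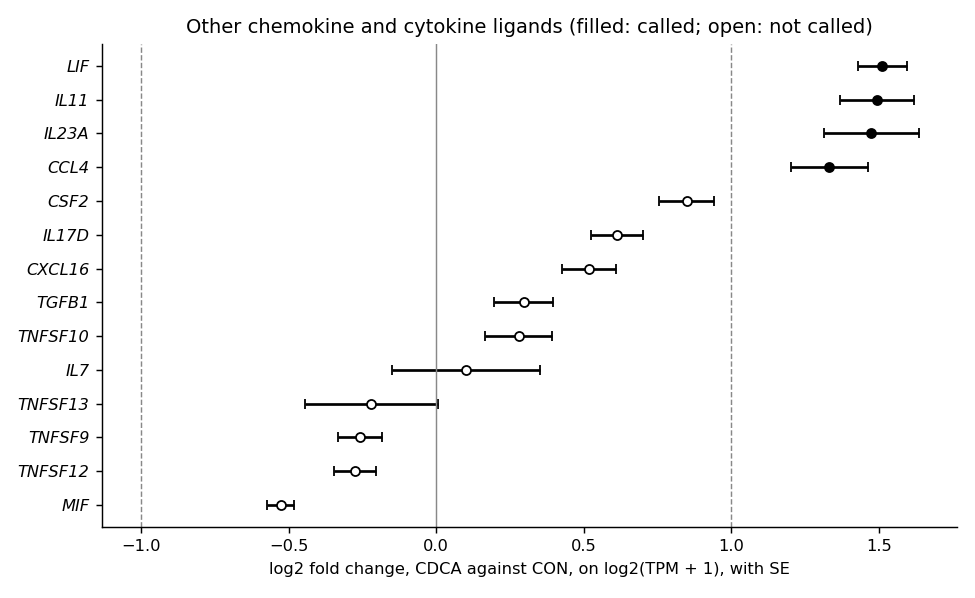
Log2 fold changes, with SE, of the 14 tested chemokine and cytokine ligands outside the set of 9. The filled points of LIF, IL11, IL23A and CCL4 lie beyond 1, and none of the open points does.

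Receptors of these ligands were mostly near 0. Of 19 receptor genes, 17 were listed and 3 tested (median log2 fold change 0.08), and none was called. CCR1 and CCR3, which bind CCL5, were listed at 0 in every library. CCR6, the receptor of CCL20, and IL18R1 and IL18RAP, the chains of the interleukin-18 receptor, were also listed at 0 throughout. CXCR2, the receptor shared by CXCL2 and CXCL8, was listed at 0.04, 0.03 and 0.02 TPM in CON against 0.21, 0.35 and 0.13 TPM in CDCA. TNFRSF1B, a TNF receptor, was abundant and higher in every CDCA library, at 24.22, 24.15 and 26.21 TPM against 44.45, 42.65 and 42.72 TPM, with a log2 fold change of 0.78 that was not called. IL6ST, the signal chain shared by IL-6, LIF and IL-11, was listed at 10.13 to 11.65 TPM in CON and 10.38 to 12.28 TPM in CDCA.

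Among 18 genes for the maturation or antagonism of IL-1, IL-18 and TNF, 13 were listed and 9 tested, and none was called (median log2 fold change -0.02). CASP1, the protease that cuts the interleukin-18 precursor, and PYCARD, its inflammasome adaptor, were listed at 0 in every library. A listing at 0 in this table does not show that a gene is silent, since it can come from how transcripts were quantified. ADAM17, the protease that releases TNF from the membrane, had a log2 fold change of 0.83.

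Of 25 genes of the NF-kB pathway, 22 were tested, with 2 called higher and 0 called lower, and a median log2 fold change of 0.39. BIRC3, an inhibitor of apoptosis and an NF-kB target, was listed at 18.24, 15.85 and 15.63 TPM in CON against 44.84, 49.60 and 42.45 TPM in CDCA (log2 fold change 1.41, limma FDR 3.05e-05). RELB, an NF-kB subunit, was listed at 1.95, 2.93 and 0.05 TPM in CON against 9.55, 7.33 and 4.14 TPM in CDCA. It was also called higher (log2 fold change 1.74 ± 0.51 SE), but its limma FDR was 0.0808 without CDCA replicate 1 and 0.072 without CDCA replicate 2. The RELB call was also lost with a pseudocount of 0.1 TPM (limma FDR 0.0686), with no filter (0.0721) and with listed TPM rescaled to 1000000 (0.051). The feedback inhibitors NFKBIA and TNFAIP3 had log2 fold changes of 0.71 and 0.84 and were not called. In every CDCA library, 12 of the 22 were higher (33.7% of all tested genes) and 1, IKBKB (-0.52), was lower (27.8%). The groups overlapped for the subunits RELA (-0.42) and NFKB1 (0.17) and for ICAM1 (-0.35).

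Of 18 genes that act on cytokine mRNAs with AU-rich elements, 13 were tested (median log2 fold change 0.22). Beside 3.51% of all tested genes, 1 of these was called higher. That gene was ZC3H12A, an RNase that degrades the mRNAs of IL-6 and other cytokines, listed at 3.04, 3.10 and 4.21 TPM in CON against 8.71, 9.48 and 9.06 TPM in CDCA (log2 fold change 1.19, limma FDR 0.000215). ZFP36, which binds AU-rich elements and promotes decay, had a log2 fold change of 0.74 and was not called. Higher in every CDCA library were 7 of the 13 (33.7% of all tested genes), and 3 were lower (27.8%). Those 3 were ELAVL1 (-0.46), CNOT1 (-0.43) and KHSRP (-0.37), also not called. Of 14 genes of IL-6 signalling and its SOCS feedback, 11 were tested and none of those was called, with a median log2 fold change of 0.19. SOCS1, a feedback inhibitor of cytokine signalling that did not reach the filter, was listed at 0.11, 0.05 and 0.08 TPM in CON against 1.05, 1.15 and 1.01 TPM in CDCA.

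The 24 transcription factors known to act at cytokine promoters were covered by 25 gene IDs, of which 18 were tested. The median log2 fold change was 0.23. Beside 3.51% and 3.90% of all tested genes, 6 IDs were called higher and 0 lower. The 6 IDs were DDIT3, a stress-induced C/EBP family member under 2 IDs (3.86 and 1.34), ATF3 (1.80), KLF4 (1.54), CEBPB, the factor first named for its binding at IL6 (1.43), and CEBPG (1.23). Reads may be divided between the DDIT3 IDs, and the ID with 1.34 passed the filter only through the CDCA libraries. KLF4 was listed at 1.95, 7.47 and 8.56 TPM in CON against 19.63, 15.50 and 16.10 TPM in CDCA. Its log2 fold change was 0.9993 without CON replicate 1, and its limma FDR was 0.0638 without CDCA replicate 1, 0.0519 without CDCA replicate 3 and 0.0598 with no filter. Among the 18 tested IDs, 9 were higher in every CDCA library and 4 were lower, where the shares over all tested genes were 33.7% and 27.8%. The lower ones were FOSL2 (-0.63), KLF5 (-0.35), FOSL1 (-0.24) and FOS (-0.18), and none was called. Binding at the promoters of the 9 genes was not measured.

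Markers of cell types were read beside these results. Of 11 epithelial markers, 10 were listed and 7 had a mean of at least 1 TPM, with a sum of 1190 to 1228 TPM in CON and 1458 to 1613 TPM in CDCA. EPCAM, KRT8 and KRT18 were abundant in every library, whereas VIL1 and CDH1 stayed below 1 TPM and CDX2, an intestinal factor, reached at most 0.02 TPM. Claudins set the direction of this sum. Without CLDN4 it was 953 to 1013 TPM in CON and 693 to 751 TPM in CDCA, and without both CLDN4 and CLDN1 it was 508 to 524 TPM in CON and 491 to 536 TPM in CDCA, with overlap. The claudins CLDN4 (log2 fold change 1.84) and CLDN1 (-1.22) were called in opposite directions.

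Of 16 leukocyte markers, 5 had a mean of at least 1 TPM, and the list's sum was 24.4 to 25.5 TPM in CON and 28.2 to 33.5 TPM in CDCA. CD68, described below, made up a large part of that difference. The pan-leukocyte marker PTPRC, the T cell marker CD3D and the B cell marker MS4A1 did not exceed 0.01 TPM in any library. Among the lymphocyte markers listed above that, CD8A was higher in every CDCA library, at 0.08, 0.16 and 0.18 TPM in CON against 0.45, 0.39 and 0.33 TPM in CDCA. Others overlapped between groups, such as CD3E at 0.25 to 1.32 TPM in CON and 0.30 to 0.63 TPM in CDCA, and CD79A at 1.72 to 3.36 and 1.62 to 4.28 TPM. CD68, a lysosomal protein used as a macrophage marker, was listed at 0, 0 and 0.26 TPM in CON against 5.33, 4.75 and 4.44 TPM in CDCA, so it passed the filter only through the CDCA libraries, where it was called higher (log2 fold change 2.43). Of the other myeloid markers, ITGAM was listed at 0.40 to 0.58 TPM in CON and 1.17 to 1.31 TPM in CDCA, TYROBP at 0.61 to 1.30 and 1.39 to 2.69 TPM, and CD14 at 0.85 to 1.17 and 1.27 to 1.64 TPM. Each of these 3 was higher in every CDCA library. LYZ, the most abundant marker of the list, was lower in every CDCA library (19.93, 19.15 and 18.34 against 17.35, 18.11 and 15.75 TPM), and CSF1R, CD163 and FCER1G did not exceed 0.20 TPM in any. Of the 5 tested leukocyte markers, 3 (CD68, TYROBP and CD14) were higher in every CDCA library and 1 (LYZ) was lower. The shares over all tested genes were 33.7% and 27.8%. TYROBP and CD14, with CON means of 0.943 and 0.997 TPM, also passed the filter only through the CDCA libraries. Nothing is therefore read from this count, and the part of these markers in the results for the 9 genes was not tested. The 8 fibroblast markers summed to 1.40 to 1.97 TPM in CON and 1.16 to 1.27 TPM in CDCA, and the 4 listed of 5 endothelial markers to 2.21 to 2.74 TPM and 1.90 to 2.34 TPM.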

How the data were processed

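IPEC-J2 cells given PBS (CON) or CDCA were compared, with 3 libraries in each group and groups taken from the sample labels. RSEM was used by the authors for quantification, and the deposited TPM values, with 2 decimals, cover 63041 transcripts of 31908 Ensembl pig gene IDs, and their own comparison used edgeR. The submitters' processing notes list Bowtie 0.12.2 and mm10 without a role. The aligner and the pig genome build are not given in the sources used here, so no coordinates are printed. Transcript TPM were summed by gene ID, and symbols came from the deposited names, a table of Ensembl IDs (15019 IDs) and the deposited descriptions, which together named 17513 IDs. Gene order came from RefSeq (Sscrofa11.1).

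Differences were fitted over the 8708 genes averaging 1 TPM or more, on log2(TPM + 1), with limma 3.58.1 in R 4.3.3 (lmFit, and eBayes with a trend) and Benjamini-Hochberg adjustment over all of them. The steps were tested on simulated data. P-values measure only the spread between these samples. No count-based test was used, as TPM are not counts and keep no depth.

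The 9 genes and the gene lists were chosen with earlier results of these data known, and the members' rule was their name. Named genes were the 9 genes, the called genes of each list (at most 6, by size of change) and, for CCL5 and IL18, the 3 tested genes with the highest Pearson r; any other was picked after its values were seen. Alternatives were a pseudocount of 0.1 TPM, no filter, a mean of at least 5 TPM, totals without the 13 mtDNA-encoded genes, median-ratio scaling, listed TPM rescaled to 1000000, the highest listed transcript, limma without a trend, a replicate block and each library left out. The log2 ratio of mean TPM was added after seeing the data. A search of promoters for motifs was planned but not run, since promoter sequences were not used here. The legend of the study's RT-qPCR figure names IL-6 and CLDN1 among its genes. Data on the RT-qPCR and cell assays of the study were not analysed here.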

Additional observations from a re-analysis of the deposited data

How the results depend on the processing

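No log2 fold change of the 6 tested genes changed sign under the 15 alternatives or as a log2 ratio of mean TPM. As a description, since the genes were chosen on this contrast, CCL5 and CXCL8 stayed above 1 in each of them. CCL20 passed 1 with a pseudocount of 0.1 TPM and with listed TPM rescaled to 1000000, which put 3 genes in place of 2 among those called higher. As a log2 ratio of mean TPM, which carries no call, CCL20 stood at 1.14. Without the mtDNA-encoded genes in the totals, 1 of the 9 genes (IL18) was among those called lower in place of 0, and CXCL2 stood at 0.70 in place of 0.85. That scaling also moved the median log2 fold change of all tested genes from 0.05 to -0.10, so these values moved with it. It also gave 221 genes called higher and 485 lower over all genes, in place of 306 and 340. The counts were 509 higher and 505 lower with a pseudocount of 0.1 TPM, 197 and 238 with a mean of at least 5 TPM (5209 genes tested), and 523 and 481 with listed TPM rescaled to 1000000. A mean of at least 5 TPM left out CCL20, CCL4, CD68, IL11, IL23A, RELB and the less abundant DDIT3 ID, so they have no value there, and that DDIT3 ID also has none where a CDCA library was left out. Of the 16 named list genes, 2 (KLF4 and RELB) lost their call under an alternative that gave them a value, and none changed sign in those.

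With the replicate number as a block, 309 genes were called higher and 343 lower, and the same number of the 9 genes was among them. The numbers share no stated culture or batch, and the deviations of same-numbered libraries correlated at -0.0353, -0.0916 and -0.0509, with no library correlating best with its own number, so they were not taken as pairs. TPM do not keep the reads behind a value, and genes that averaged under 1 TPM were not tested in the main fit. The planned promoter motif search was not run.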
